A study of Mus musculus with 6 samples.

Results

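The genes described here are 10 cytokine genes of monocytes and macrophages: the interleukin-1 family genes *Il1a*, *Il1b*, *Il1rn* and *Il18*, the inflammatory genes *Il6* and *Tnf*, and *Il27*, *Il10*, *Tgfb1* and *Tnfsf13b*. They were listed by name among the 55421 gene identifiers counted, by a rule that uses no measured value but was written with earlier results of these data known. Their transcripts were measured by RNA sequencing of spleen monocytes from C57BL/6 mice, in 3 libraries of the IL-4Rα+/+ genotype and 3 of the IL-4Rα-/- genotype. Nothing in the sources used here says whether each library came from a separate mouse, so p-values measure the spread between these libraries only. IL-4Rα is the receptor chain that IL-4 and IL-13 share. The knockout is labelled by genotype alone and is not restricted to a cell type, and no treatment is named for either genotype. The labels give neither age nor sex, and the study's methods, in their account of the in vivo work, give an adult range of ages for all animals that is not tied to single libraries. Monocytes were enriched with a kit rather than sorted, and the comparison asks which cytokine transcripts differ in splenic monocytes when the receptor is missing.

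Inflammatory cytokines of this group such as IL-6 and TNF are made by monocytes and macrophages on contact with microbes or injured tissue. They are made mostly through the transcription factors NF-kB and AP-1. IL-1α and IL-1β bind the same receptor, and the product of *Il1rn* occupies that receptor without activating it. IL-1β and IL-18 are made as precursors that the protease caspase-1 cuts. IL-4 and IL-13 act through IL-4Rα and the transcription factor STAT6 and are known to restrain inflammatory cytokines and to raise *Il1rn* in macrophages.

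Between 26807281 and 29033297 reads per library fell on genes. Levels are given as CPM, counts scaled to libraries of one common total after TMM normalization, which assumes that most genes do not differ. The targeted gene *Il4ra* was at 137, 128 and 177 CPM in IL-4Rα+/+ replicates 1, 2 and 3 and at 27.9, 79.4 and 31.8 CPM in IL-4Rα-/- replicates 1, 2 and 3. The genotypes did not overlap, and the library labelled IL-4Rα-/- replicate 2 kept the most *Il4ra* reads of its genotype. Counts over the whole gene do not show whether these reads come from the deleted part. The monocyte genes *Lyz2* and *Csf1r* were high in every library, at 8847 to 17025 CPM and 2227 to 3095 CPM. Markers of other cells were nevertheless present and differed between the genotypes. Of 11 erythroid markers tested, 8 were higher in IL-4Rα-/- libraries at an unadjusted p under 0.05, as were 9 of 12 eosinophil, basophil and mast cell markers, 6 of 12 red pulp macrophage markers, 5 of 13 neutrophil markers and 2 of 12 B and plasma cell markers. Of 12 dendritic cell markers, 1 was higher and 1 lower at that level, and 9 had a negative difference. Of 14 monocyte and 12 T and NK cell markers, 0 were at that level in either direction. Over all 13849 genes tested, 3.72% were higher and 4.37% lower at that level. The summed erythroid level was 73.9 to 141 CPM in IL-4Rα+/+ and 183 to 446 CPM in IL-4Rα-/- libraries, and that of the eosinophil, basophil and mast cell list was 88.1 to 98.3 and 141 to 225 CPM. The summed level of the neutrophil list was 65.6 to 298 CPM in IL-4Rα+/+ and 138 to 767 CPM in IL-4Rα-/- libraries, with *Ly6g* under 1 CPM in all 6. *Xist*, which female cells express, was at 553 CPM in IL-4Rα+/+ replicate 1 and 457 CPM in IL-4Rα-/- replicate 3 and at 3.73 CPM or less in the others. In bulk samples like these, fewer cells of a type and less RNA per cell cannot be told apart.

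None of the cytokine genes passed the test. Of the 10, 9 had enough counts to be tested, and 0 were called at an adjusted p under 0.15 by edgeR's quasi-likelihood test or by DESeq2. Over all genes, edgeR called 0 of 13849 (0.0%), with 1120 (8.09%) at an unadjusted p under 0.05, and DESeq2 called 80 of 14003 (0.571%). Among the 9 cytokine genes, 1 (11.1%) had an unadjusted p under 0.05, and this gene was *Il18*. It was also the 1 gene whose genotypes did not overlap, against 15.5% of all genes tested. By direction, 3.72% of all genes were higher and 4.37% lower in IL-4Rα-/- libraries at that p, and 7.63% were higher and 7.87% lower without overlap. The fitted differences were positive for 4 genes and negative for 5, where 51.5% of all genes were positive, with a median log2 difference of -0.02 beside 0.01 over all genes. With 3 against 3 libraries an exact permutation test of a single gene cannot give a p below 0.10.

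**Figure D1:**
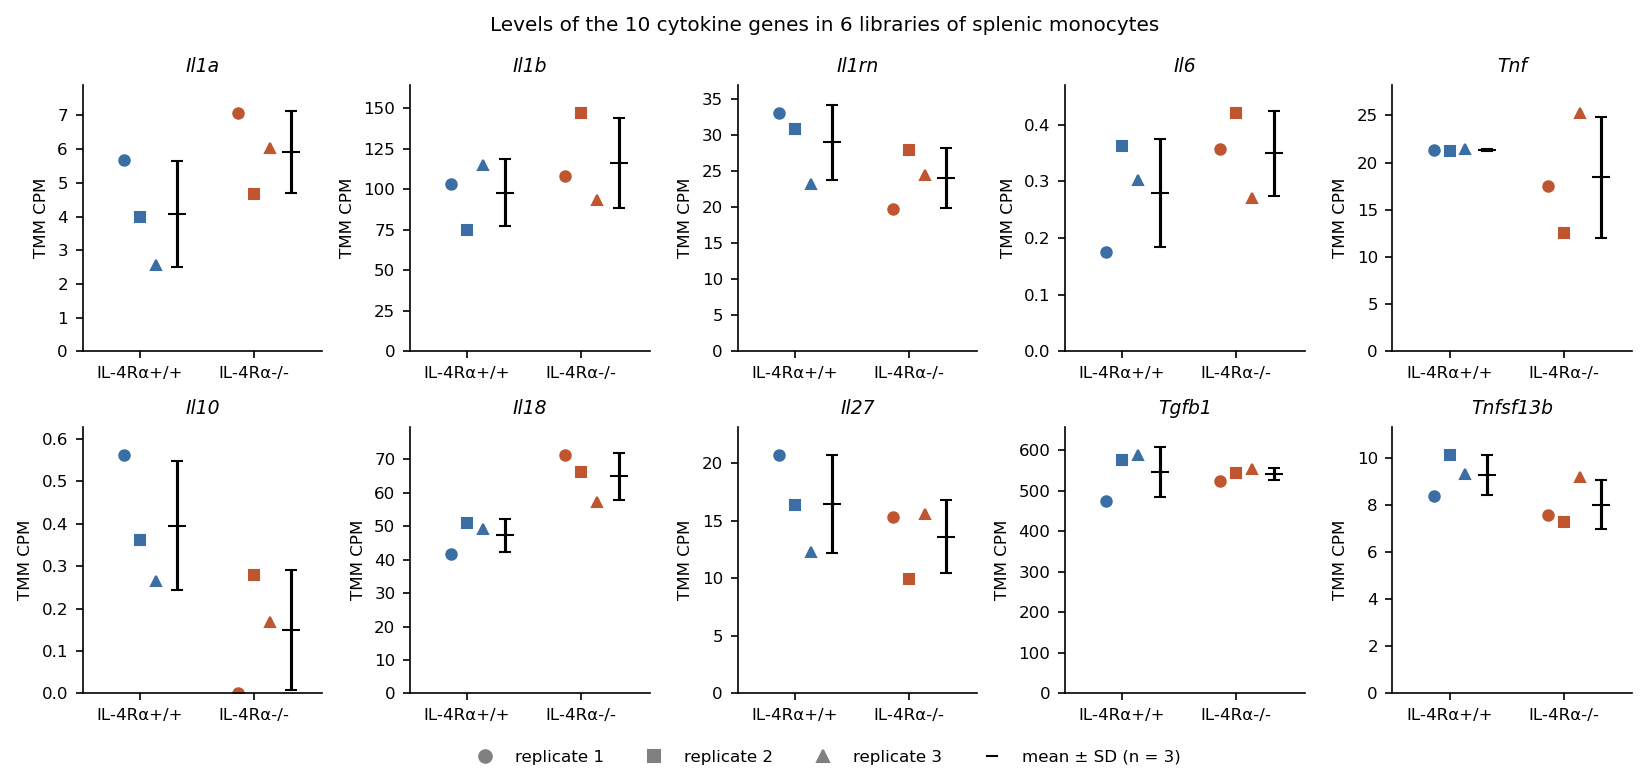
TMM-normalized CPM of each of the 10 cytokine genes on its own linear axis from 0, with 1 point per library, its shape giving the replicate number, and the mean ± SD of each genotype beside them (n = 3). *Il18* is the gene whose IL-4Rα-/- points, at 57.4 to 71.3 CPM, all lie above the IL-4Rα+/+ points, at 41.7 to 51.1 CPM.

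The abundance of the 10 transcripts spanned a wide range. Divided by the length of the exons, *Tgfb1* was the most abundant, with a mean of 108 CPM per kb over the 6 libraries. *Il1b* and *Il18* followed at 56.1 and 54.5 CPM per kb, with ranges over the libraries that overlapped. *Il27* at 14.7 and *Tnf* at 12.1 CPM per kb also overlapped. *Il1rn*, *Il1a* and *Tnfsf13b* came next at 4.79, 2.53 and 1.26 CPM per kb, each overlapping its neighbour in the order. *Il10* and *Il6* were the lowest at 0.208 and 0.130 CPM per kb and did not differ beyond their spread. The steps from *Tgfb1* to *Il1b*, from *Il18* to *Il27*, from *Tnf* to *Il1rn* and from *Tnfsf13b* to *Il10* were without overlap between libraries.

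*Il18* (ENSMUSG00000039217.13; chromosome 9, 50554827 to 50581840, plus strand, GRCm38 as for all positions here) encodes an interleukin that drives interferon-γ production by T and NK cells. It was at 41.7, 51.1 and 49.2 CPM in IL-4Rα+/+ replicates 1, 2 and 3, from 1187, 1412 and 1304 reads. In IL-4Rα-/- replicates 1, 2 and 3 it was at 71.3, 66.2 and 57.4 CPM, from 1997, 1889 and 1697 reads. Every IL-4Rα-/- library was thus above every IL-4Rα+/+ library. The means were 47.3 ± 4.97 and 65.0 ± 7.03 CPM (SD, n = 3 each), a 1.37-fold difference with a 95% interval of 1.13 to 1.66. On the log2 scale the difference was 0.46 (SE 0.12), with an unadjusted p of 0.00612 and an adjusted p of 0.618 by edgeR and an adjusted p of 0.203 by DESeq2, so it did not pass over all genes. Without IL-4Rα-/- replicate 2, the library with the most *Il4ra* of its genotype, the log2 difference was 0.44. The exact two-sided permutation p was 0.10, the smallest the design allows. *Bco2* and *Tex12* overlap *Il18* on the other strand, and which strand setting the counts used is not stated. *Bco2* had 292 to 458 counts in IL-4Rα+/+ and 405 to 493 in IL-4Rα-/- libraries.

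Of the genes that act on IL-18, none was called. *Casp1*, the protease that matures IL-18, was at 143 to 149 CPM in IL-4Rα+/+ and 143 to 147 CPM in IL-4Rα-/- libraries, with a log2 difference of -0.02 (95% interval -0.17 to 0.13). *Il18bp*, the secreted protein that neutralizes IL-18, was at 12.9 to 24.0 CPM in IL-4Rα+/+ and 14.9 to 25.9 CPM in IL-4Rα-/- libraries, with a log2 difference of 0.34 (95% interval -0.37 to 1.04). *Pycard*, the adaptor that brings caspase-1 to the inflammasome, was at 45.5, 80.6 and 93.1 CPM in IL-4Rα+/+ and 35.4, 59.4 and 35.9 CPM in IL-4Rα-/- replicates 1, 2 and 3. Its log2 difference was -0.75 (SE 0.31) with an adjusted p of 0.618, and the genotypes overlapped. These 3 genes were chosen for their roles after their values were seen.

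Several marker lists moved with *Il18* over the 6 libraries. The summed red pulp macrophage markers were at 3738, 3401 and 3224 CPM in IL-4Rα+/+ and 6800, 4658 and 4297 CPM in IL-4Rα-/- replicates 1, 2 and 3, and their correlation with *Il18* was 0.845 (Pearson, n = 6). For the B and plasma cell markers the correlation was 0.951. Their sums were 835, 1157 and 921 CPM in IL-4Rα+/+ and 1469, 1276 and 1186 CPM in IL-4Rα-/- replicates 1, 2 and 3. Within each genotype these sums had the same order as *Il18*. The correlation was 0.878 for the eosinophil, basophil and mast cell markers and 0.361 for the erythroid markers. The eosinophil, basophil and mast cell sum was lowest of its genotype in IL-4Rα+/+ replicate 2, where *Il18* was highest. In IL-4Rα-/- replicate 1 both were highest. The erythroid sum had the order of *Il18* in IL-4Rα+/+ libraries. It was highest in IL-4Rα-/- replicate 3, where *Il18* was lowest of that genotype. These correlations are descriptions over libraries that also differ in genotype, and none of these lists had a gene at 0 in all libraries. IL-4Rα-/- replicate 1 had both the highest red pulp macrophage sum and the highest *Il18*. Among the IL-4Rα+/+ libraries, replicate 1 had the highest red pulp macrophage sum but the lowest *Il18*, while replicate 2 was above replicate 3 in both. The part of these cells in the *Il18* difference was not tested.

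**Figure D2:**
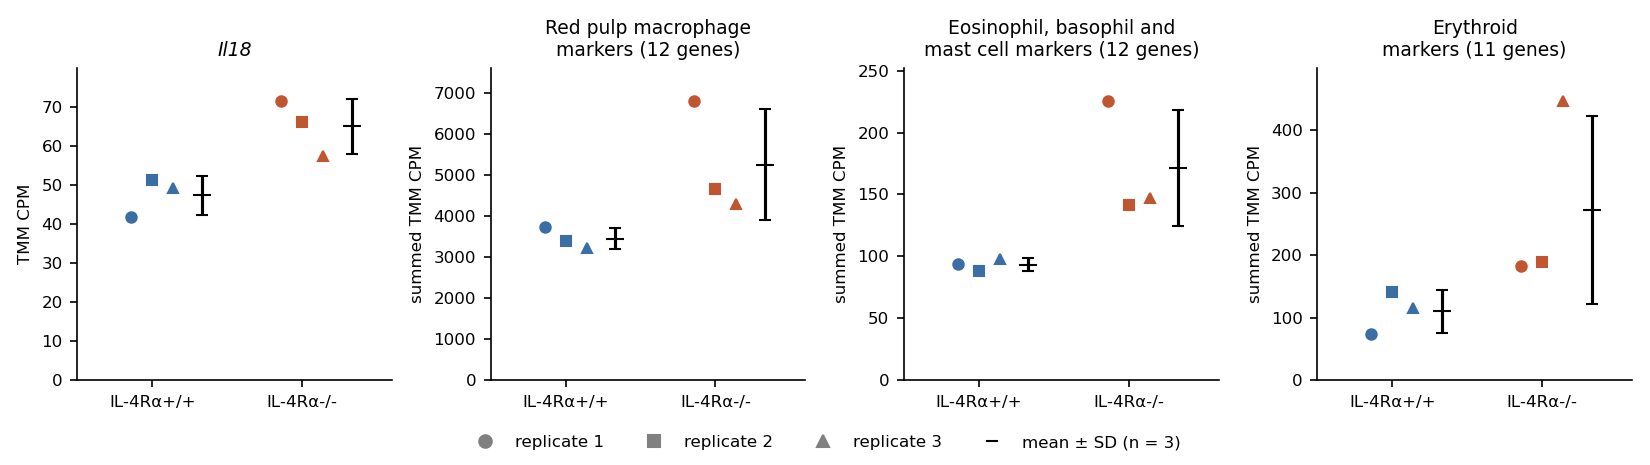
TMM-normalized CPM of *Il18* and the summed CPM of the red pulp macrophage, eosinophil, basophil and mast cell, and erythroid marker lists, with 1 point per library, its shape giving the replicate number, and the mean ± SD (n = 3). In each panel the 3 IL-4Rα-/- points lie above the IL-4Rα+/+ points, from 4297 to 6800 CPM against 3224 to 3738 CPM for the red pulp macrophage list.

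*Il1a* (ENSMUSG00000027399.1; chromosome 2, 129299610 to 129309972) and *Il1b* (ENSMUSG00000027398.13; chromosome 2, 129364570 to 129371139) are neighbours, both transcribed from the minus strand. Each overlaps a noncoding gene on the other strand, *Gm14023* with 16 to 36 counts and *Il1bos* with 11 to 31. *Il1a* was at 5.69, 3.98 and 2.57 CPM in IL-4Rα+/+ replicates 1, 2 and 3, from 162, 110 and 68 reads. In IL-4Rα-/- replicates 1, 2 and 3 it was at 7.07, 4.66 and 6.02 CPM, from 198, 133 and 178 reads. The highest IL-4Rα+/+ library exceeded the lowest IL-4Rα-/- library, so the genotypes overlapped. The log2 difference of 0.53 (SE 0.32, 95% interval -0.23 to 1.30) had an adjusted p of 0.656. The difference was 0.29 without IL-4Rα+/+ replicate 3 and 0.85 without IL-4Rα+/+ replicate 1.

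*Il1b* was at 103, 74.9 and 115 CPM in IL-4Rα+/+ and at 108, 147 and 93.1 CPM in IL-4Rα-/- replicates 1, 2 and 3. The highest library was IL-4Rα-/- replicate 2, while IL-4Rα-/- replicate 3 lay below IL-4Rα+/+ replicates 1 and 3. The means were 97.7 ± 20.7 and 116 ± 27.8 CPM (SD, n = 3 each), with a log2 difference of 0.25 (SE 0.22, 95% interval -0.27 to 0.77) and an adjusted p of 0.739. The difference was 0.042 without IL-4Rα-/- replicate 2.

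*Il1rn* (ENSMUSG00000026981.15; chromosome 2, 24336853 to 24351494, plus strand) encodes the IL-1 receptor antagonist. It was at 33.1, 30.8 and 23.2 CPM in IL-4Rα+/+ and at 19.7, 28.0 and 24.5 CPM in IL-4Rα-/- replicates 1, 2 and 3. The lowest IL-4Rα+/+ library lay within the IL-4Rα-/- range. The log2 difference was -0.27 (SE 0.18, 95% interval -0.70 to 0.15) with an adjusted p of 0.668. The ratio of agonist to antagonist, *Il1b* over *Il1rn* per length, was 9.05, 7.06 and 14.4 in IL-4Rα+/+ and 15.9, 15.3 and 11.05 in IL-4Rα-/- replicates 1, 2 and 3, and the genotypes overlapped. Of 21 receptor, processing and signalling genes of IL-1 and IL-18 tested, 0 were called and 0 had an unadjusted p under 0.05. The most abundant of them were *Capn2*, a calpain subunit of the kind that cuts the IL-1α precursor, at 205 to 361 CPM in IL-4Rα+/+ and 275 to 362 CPM in IL-4Rα-/- libraries, and *Myd88*, the adaptor of both receptors, at 203 to 314 and 236 to 417 CPM.

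Promoter sequences were taken from RefSeq on GRCm38.p6, as the 250 bases before a transcript start on the gene's strand, and are shown because IL-4Rα signals through STAT6. The RefSeq start used for *Il18* lies upstream of the Gencode gene start given above, and unlike the other windows its orientation could not be checked against a Gencode transcript. Entries were found for 8 of the 10 genes, without *Il10* and *Il27*. The letters TTC and GAA with 4 bases between them, a spacing that STAT6 favours, were searched on both strands and found in 5.85% of all 32851 promoters of this length. The same letters with 3 bases between them, the spacing of other STAT factors, were in 7.02%. TGANTCA for AP-1 was in 6.75%, GGG and TTTCC with 2 bases between them for NF-kB in 1.41%, and GAG followed by GAAGT for PU.1 in 2.44%. *Il18*, a start of *Il1rn* and *Tnfsf13b* held the STAT6 letters, 46, 121 and 44 bases before the RefSeq start. The same letters also lay 201 bases before a further start of *Il1rn* and 210 before another start of *Tnfsf13b*. The shares above count promoters, while *Il1rn* and *Tnfsf13b* each gave overlapping windows, so they are not shares of genes. The AP-1 letters were 12 bases before the start in *Il1a*, 249 in *Il6*, 141 at another start of *Il1rn* and 127 at another start of *Tnfsf13b*. The NF-kB letters were 44 bases before the start in *Il6* and 51 at a further start of *Il1rn*. *Il1b*, *Tnf* and *Tgfb1* held none of the letters searched. Capitals mark the matched letters, and a match is a description of the sequence, not a site of binding.
Il18, chr9:50554450-50554699, plus strand: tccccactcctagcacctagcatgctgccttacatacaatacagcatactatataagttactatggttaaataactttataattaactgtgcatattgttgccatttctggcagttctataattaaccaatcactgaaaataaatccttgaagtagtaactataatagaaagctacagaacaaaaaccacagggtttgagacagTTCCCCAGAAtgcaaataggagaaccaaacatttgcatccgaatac
Il1rn, chr2:24345041-24345290, plus strand: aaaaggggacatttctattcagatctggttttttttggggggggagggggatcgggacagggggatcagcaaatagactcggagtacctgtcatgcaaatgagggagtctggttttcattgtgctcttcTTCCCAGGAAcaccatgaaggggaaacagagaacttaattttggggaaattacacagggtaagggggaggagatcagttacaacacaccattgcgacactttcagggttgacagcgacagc
Tnfsf13b, chr8:10006217-10006466, plus strand: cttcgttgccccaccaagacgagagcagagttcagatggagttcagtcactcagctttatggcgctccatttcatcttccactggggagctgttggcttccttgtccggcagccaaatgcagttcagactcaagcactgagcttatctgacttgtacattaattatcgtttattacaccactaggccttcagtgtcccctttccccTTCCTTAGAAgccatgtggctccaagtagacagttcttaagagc
Il1a, chr2:129309973-129310222, minus strand: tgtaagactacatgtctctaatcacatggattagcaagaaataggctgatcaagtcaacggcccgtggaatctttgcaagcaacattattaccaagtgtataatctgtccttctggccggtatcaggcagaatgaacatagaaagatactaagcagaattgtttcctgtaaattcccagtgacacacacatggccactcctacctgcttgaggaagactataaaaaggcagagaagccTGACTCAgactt
Il1b, chr2:129371140-129371389, minus strand: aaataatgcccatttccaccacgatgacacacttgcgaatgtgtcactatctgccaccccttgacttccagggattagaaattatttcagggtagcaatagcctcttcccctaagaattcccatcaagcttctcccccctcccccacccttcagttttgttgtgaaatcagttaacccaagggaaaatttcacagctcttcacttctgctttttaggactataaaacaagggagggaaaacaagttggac
For the genes holding the STAT6 letters, the log2 difference was 0.46 for *Il18*, -0.27 for *Il1rn* and -0.21 for *Tnfsf13b*, none of them called. The part of STAT6 in these differences was not tested.

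*Tnf* (ENSMUSG00000024401.14; chromosome 17, 35199381 to 35202007, minus strand) encodes the inflammatory cytokine TNF. It was at 21.3, 21.2 and 21.5 CPM in IL-4Rα+/+ and at 17.6, 12.5 and 25.2 CPM in IL-4Rα-/- replicates 1, 2 and 3, so that the SD was 0.143 CPM in IL-4Rα+/+ and 6.39 CPM in IL-4Rα-/- libraries. The IL-4Rα-/- libraries lay on both sides of the IL-4Rα+/+ libraries. The log2 difference was -0.21 (SE 0.24, 95% interval -0.78 to 0.36) with an adjusted p of 0.786, and the difference was 0.0059 without IL-4Rα-/- replicate 2, the lowest library.

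*Il6* (ENSMUSG00000025746.11; chromosome 5, 30013114 to 30019981, plus strand) was counted at 5, 10 and 8 reads in IL-4Rα+/+ and 10, 12 and 8 reads in IL-4Rα-/- replicates 1, 2 and 3. The sums were 23 reads (exact Poisson 95% interval 14.6 to 34.5) and 30 reads (20.2 to 42.8), which cover counting error only. At this depth no difference was detected, with a log2 difference of 0.32 (SE 0.42, 95% interval -0.68 to 1.31). The adjusted p was 0.812 by edgeR, while DESeq2 gave no adjusted p for *Il6*.

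Among 16 tested partners of IL-6, IL-12 and IL-27, 0 were called and 0 had an unadjusted p under 0.05. *Il6ra*, which encodes the IL-6 receptor, was the most abundant, at 763, 717 and 703 CPM in IL-4Rα+/+ and 618, 621 and 691 CPM in IL-4Rα-/- replicates 1, 2 and 3. The genotypes did not overlap, and the log2 difference was -0.18 (SE 0.08) with an adjusted p of 0.618. *Stat3*, the transcription factor downstream of this receptor, was at 424 to 549 CPM in IL-4Rα+/+ and 368 to 555 CPM in IL-4Rα-/- libraries. Of 16 partners of TNF and BAFF tested, 0 were called and 0 had an unadjusted p under 0.05. *Tnfrsf1b*, a TNF receptor, was at 1417 to 1712 CPM in IL-4Rα+/+ and 1106 to 1459 CPM in IL-4Rα-/- libraries, and *Zfp36*, whose product destabilizes *Tnf* RNA, was at 375 to 692 and 502 to 699 CPM.

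*Il27* (ENSMUSG00000044701.5; chromosome 7, 126589010 to 126594941, minus strand) encodes the subunit that pairs with the product of *Ebi3* to form IL-27. It was at 20.7, 16.4 and 12.3 CPM in IL-4Rα+/+ and at 15.4, 9.95 and 15.6 CPM in IL-4Rα-/- replicates 1, 2 and 3. The lowest value was in IL-4Rα-/- replicate 2 and the highest in IL-4Rα+/+ replicate 1, with overlap between the genotypes. The log2 difference was -0.27 (SE 0.25, 95% interval -0.87 to 0.32) with an adjusted p of 0.748. *Apobr* overlaps *Il27* on the other strand and had 9139 to 10096 counts.

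*Ebi3* followed *Il27* closely, at 62.8, 52.7 and 37.5 CPM in IL-4Rα+/+ and 53.6, 34.6 and 53.7 CPM in IL-4Rα-/- replicates 1, 2 and 3. The ratio of *Il27* to *Ebi3* per length was 0.373, 0.352 and 0.370 in IL-4Rα+/+ and 0.324, 0.325 and 0.329 in IL-4Rα-/- replicates 1, 2 and 3. The ratio was lower in each IL-4Rα-/- library than in any IL-4Rα+/+ library. It was chosen after values were seen and is 1 of 3 ratios computed, so it stands as a description without a test.

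*Il27*, *Il1a* and *Il1b* also varied between libraries of the same genotype, and so did genes that mark monocyte subsets. Monocytes of the spleen fall into Ly6C high cells, marked by *Ccr2*, and Ly6C low cells, which depend on the nuclear receptor *Nr4a1* and express *Spn*, *Ace*, *Treml4*, *Cd300e* and *Adgre4*. The mean log2 CPM of these 6 Ly6C low genes was 10.09, 9.62 and 8.77 in IL-4Rα+/+ and 9.60, 8.43 and 9.36 in IL-4Rα-/- replicates 1, 2 and 3. IL-4Rα+/+ replicate 3 and IL-4Rα-/- replicate 2 were therefore the libraries lowest in Ly6C low genes in their genotypes. The same libraries had the lowest *Il27* and *Il1a* and the highest *Il1b* of their genotypes. The summed dendritic cell markers were also lowest there within each genotype, at 1089 and 977 CPM. Genes of that list differed, since *Flt3* was lowest in replicate 1 of each genotype. Which cells carried these cytokine transcripts was not tested. Over the 6 libraries the correlation with the Ly6C low mean was 0.984 for *Il27*, 0.509 for *Il1a* and -0.680 for *Il1b* (Pearson, n = 6), and after subtraction of the genotype means it was 0.985, 0.956 and -0.633. Other cytokine genes had correlations of similar size to those of *Il1a* and *Il1b*, with 0.560 for *Tnf*, -0.654 for *Il6*, -0.591 for *Tgfb1* and -0.437 for *Il18*, and *Il1rn* and *Tnfsf13b* were at 0.264 and 0.260. These values share libraries and normalization and are given as descriptions.

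**Figure D3:**
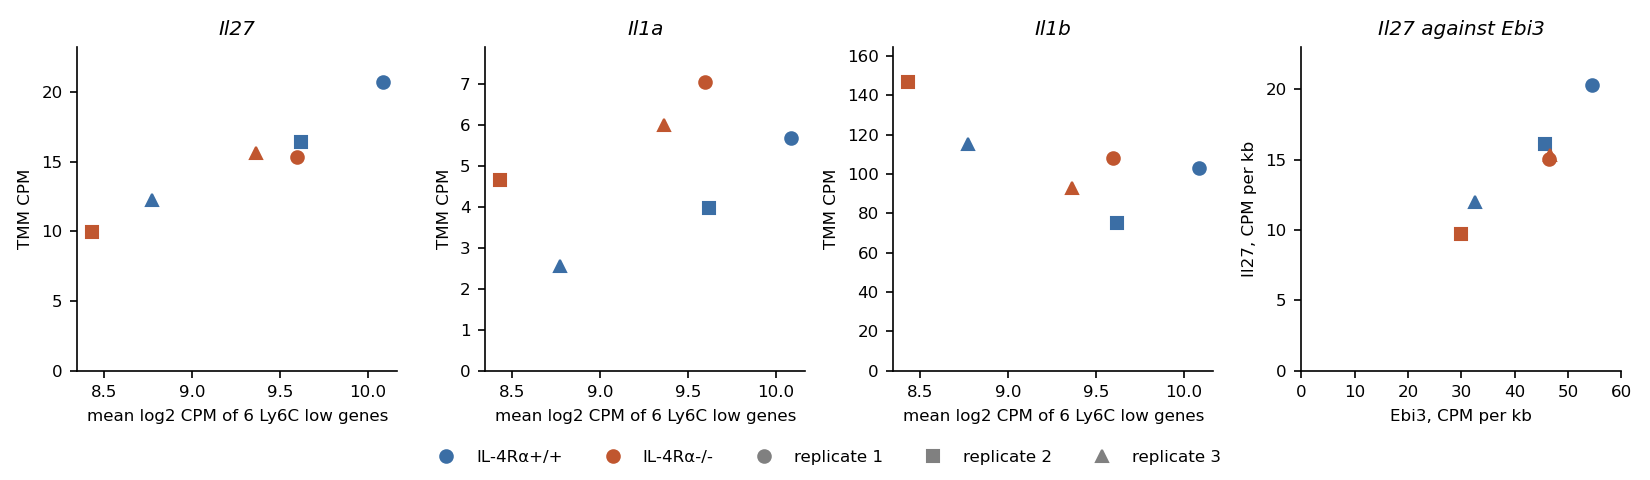
Levels of *Il27*, *Il1a* and *Il1b* in TMM-normalized CPM against the mean log2 CPM of 6 Ly6C low monocyte genes, and *Il27* against *Ebi3* in CPM per kb of exons, with 1 point per library coloured by genotype and shaped by replicate number. *Il27* rises along the axis from 9.95 CPM in IL-4Rα-/- replicate 2 to 20.7 CPM in IL-4Rα+/+ replicate 1.

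Both libraries also had the highest summed levels of immediate early genes in their genotypes, which cells induce within minutes of stimulation or handling. *Fos* was at 109, 64.7 and 520 CPM in IL-4Rα+/+ and 200, 488 and 252 CPM in IL-4Rα-/- replicates 1, 2 and 3. Its correlation with *Il1b* was 0.818 (Pearson, n = 6). The most abundant genes of this list were *Nr4a1* and *Junb*. *Junb* was at 311, 271 and 592 CPM in IL-4Rα+/+ and 379, 611 and 410 CPM in IL-4Rα-/- replicates 1, 2 and 3. *Nr4a1*, which is also 1 of the 6 Ly6C low genes, went the other way. It was at 1439, 1209 and 828 CPM in IL-4Rα+/+ and 1024, 539 and 1116 CPM in IL-4Rα-/- replicates 1, 2 and 3. Of 16 immediate early genes tested, 0 had an unadjusted p under 0.05 between the genotypes. The neutrophil sum was likewise highest in these libraries within each genotype, at 298 and 767 CPM. Its largest part there was *Mmp8*, at 170 and 305 CPM. Genes of that list differed. *Cxcr2* and *Retnlg* were lowest in IL-4Rα+/+ replicate 3 within its genotype, while *Cxcr2* was highest in IL-4Rα-/- replicate 2. The part of handling, neutrophils or monocyte make-up in the *Il1b* levels was not tested.

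*Il1a* had the largest spread of the 9 genes, and the genes whose log2 CPM followed it most closely over the 6 libraries were *Rnf227* (Pearson r 0.997), *D630033O11Rik* (0.991), *Mras* (0.988), *Lsm14a* (0.986) and *Rad51b* (0.985). *Mras*, a small GTPase gene, was at 4.76 to 8.19 CPM in IL-4Rα+/+ and 7.29 to 9.996 CPM in IL-4Rα-/- libraries. These genes were the closest of 13849, and the values describe likeness only.

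*Tgfb1* (ENSMUSG00000002603.15; chromosome 7, 25687002 to 25705077, plus strand) encodes the regulatory cytokine TGF-β1. It was at 475, 576 and 587 CPM in IL-4Rα+/+ and at 524, 543 and 553 CPM in IL-4Rα-/- replicates 1, 2 and 3. The IL-4Rα-/- values all lay inside the IL-4Rα+/+ range. The log2 difference was -0.02 (SE 0.10), with a 95% interval of -0.25 to 0.22. The adjusted p was 0.967.

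*Il10* (ENSMUSG00000016529.5; chromosome 1, 131019845 to 131024974, plus strand) encodes a cytokine that dampens macrophage activation and had too few counts for the test. It had 16, 10 and 7 reads in IL-4Rα+/+ and 0, 8 and 5 reads in IL-4Rα-/- replicates 1, 2 and 3. The read count of 0 in IL-4Rα-/- replicate 1 allows up to 3 counts. The sums were 33 reads (exact Poisson 95% interval 22.7 to 46.3) and 13 reads (6.92 to 22.2), and the single libraries of the genotypes overlapped.

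*Tnfsf13b* (ENSMUSG00000031497.9; chromosome 8, 10006467 to 10039072, plus strand) encodes BAFF, a survival factor for B cells. It was at 8.40, 10.1 and 9.32 CPM in IL-4Rα+/+ and at 7.57, 7.29 and 9.20 CPM in IL-4Rα-/- replicates 1, 2 and 3. The highest IL-4Rα-/- library exceeded the lowest IL-4Rα+/+ library. The log2 difference was -0.21 (SE 0.16, 95% interval -0.58 to 0.16) with an adjusted p of 0.703.

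**Figure D4:**
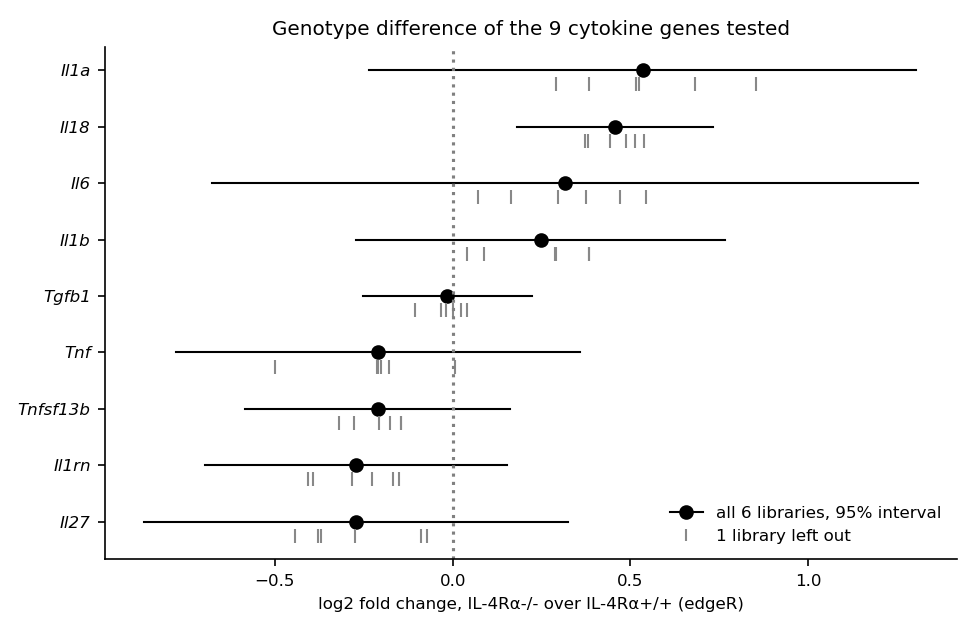
Log2 difference of IL-4Rα-/- minus IL-4Rα+/+ for the 9 cytokine genes tested, with lines for the 95% interval from edgeR's quasi-likelihood test (n = 3 per genotype) and grey ticks for the 6 fits that each leave out 1 library. The interval of *Il18*, 0.18 to 0.73, is the one that lies wholly above 0.

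Of 17 tested partners of IL-10 and TGF-β, 0 were called, and *Smad3* and *Maf* had an unadjusted p under 0.05. *Smad3*, which carries the TGF-β signal to the nucleus, was at 92.4, 68.8 and 56.5 CPM in IL-4Rα+/+ and 50.7, 49.6 and 52.4 CPM in IL-4Rα-/- replicates 1, 2 and 3. Its log2 difference was -0.51 (SE 0.17), with an unadjusted p of 0.0227 and an adjusted p of 0.618. *Maf*, a transcription factor that drives *Il10*, was at 128, 121 and 116 CPM in IL-4Rα+/+ and 218, 154 and 131 CPM in IL-4Rα-/- replicates 1, 2 and 3. Its log2 difference was 0.46 (SE 0.19), with an adjusted p of 0.618, and IL-4Rα-/- replicate 1, the library richest in red pulp macrophage markers, was the highest. *Il10ra*, the IL-10 receptor, was at 580 to 751 CPM in IL-4Rα+/+ and 467 to 587 CPM in IL-4Rα-/- libraries. *Nrros*, which holds latent TGF-β1 on myeloid cells, was at 368 to 455 and 408 to 540 CPM.

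The 12 NF-kB genes listed were subunits, inhibitors and IκB kinase genes. Of these, 0 were called, and 11 had a negative difference, with a median log2 difference of -0.20 beside 0.01 over all genes. The list mixes genes that activate and genes that limit NF-kB, so a shared sign gives no direction of the pathway. In this list *Cyld*, *Chuk* and *Rel* had an unadjusted p under 0.05, which 4.37% of all genes reached in this direction. *Rel*, a subunit found mainly in blood cells, was at 246, 204 and 150 CPM in IL-4Rα+/+ and 156, 111 and 149 CPM in IL-4Rα-/- replicates 1, 2 and 3, with a log2 difference of -0.53 (SE 0.21) and an adjusted p of 0.618. It was lowest within each genotype in the libraries that were lowest in Ly6C low genes. *Cyld*, a deubiquitinase that limits NF-kB, had a log2 difference of -0.21 (SE 0.07), and *Chuk*, an IκB kinase, one of -0.25 (SE 0.10). The most abundant genes of this list were *Ikbkb* and *Nfkb1*. *Ikbkb* was at 602 to 670 CPM in IL-4Rα+/+ and 509 to 599 CPM in IL-4Rα-/- libraries, without overlap. Its log2 difference was -0.19 (SE 0.09), with an adjusted p of 0.619 by edgeR. *Nfkb1* was at 485 to 576 and 417 to 556 CPM. Over all 6 partner lists, 98 genes were tested and 5 (5.10%) had an unadjusted p under 0.05, against 8.09% of all genes.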

How the data were processed

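RNA of splenic monocytes, enriched with a monocyte isolation kit, was made into 6 polyadenylated, directional libraries and read once per fragment over 75 bp. Alignment by the authors used STAR 2.6.1a, GRCm38 and Gencode gene models. They deposited raw counts per gene, not normalized. RSEM and DESeq2 1.22.2 are also named in the submitters' processing notes. The strand setting of the counts is not given in the sources used here. Reads not counted on genes (21.1 to 22.8% of each library) were left out. No 2 libraries held identical values.

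Genes kept by filterByExpr (minimum count 10) were normalized by TMM and tested for genotype by quasi-likelihood (edgeR 4.0.16, R 4.3.3). P-values were adjusted over all genes by Benjamini-Hochberg, with the study's threshold of 0.15. DESeq2 1.42.0 was the alternative tool. Single genes were compared by two-sided exact permutation tests over 20 labelings. Symbols and exonic lengths came from Gencode M21, in which 55154 of 55421 identifiers were found. The steps were tested on simulated data with planted changes larger than any fitted difference of the cytokine genes. That run does not show how often differences of the size described here would be found. One count was 0.0344 to 0.0373 CPM, and intervals on counts cover counting error only.

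The cytokine genes and lists were chosen with earlier results of these data known. Named from the partner lists were the 2 genes with the highest mean CPM and those at an unadjusted p under 0.05. The 5 genes most alike the cytokine gene with the largest spread were taken from all genes tested. Other genes were named after their values were seen. The Ly6C low marker covariate was also chosen after seeing the data. The other alternatives changed the tool, normalization, filter, threshold, replicate block, length trend and *Xist* covariate, or left out each library in turn.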

Additional observations from a re-analysis of the deposited data

How the results depend on the processing

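At the adjusted threshold, 0 cytokine genes and 0 partner genes were called under each alternative run, while DESeq2 called 80 genes in all. *Il18* kept its direction under all 16 alternatives, with a log2 difference of 0.34 to 0.54, an unadjusted p of 0.00175 to 0.0255 and an adjusted p of 0.203 to 0.901. Over the cytokine genes, 137 of 143 values kept their direction and side of the threshold and 6 changed sign, all near 0. These were *Tgfb1*, at 0.0057 with upper quartile scaling, 0.011 with library size only, and 0.024, 0.041 and 0.00096 without IL-4Rα+/+ replicate 2, IL-4Rα+/+ replicate 3 and IL-4Rα-/- replicate 1, and *Tnf*, at 0.0059 without IL-4Rα-/- replicate 2. With a library left out, *Tgfb1* ranged from -0.11 to 0.041, *Tnf* from -0.50 (without IL-4Rα-/- replicate 3) to 0.0059, *Il1a* from 0.29 to 0.85, *Il1b* from 0.042 (without IL-4Rα-/- replicate 2) to 0.38, *Il6* from 0.070 (without IL-4Rα+/+ replicate 1) to 0.54 (without IL-4Rα+/+ replicate 2), *Il27* from -0.44 (without IL-4Rα+/+ replicate 3) to -0.073 (without IL-4Rα+/+ replicate 1), *Il1rn* from -0.41 (without IL-4Rα+/+ replicate 3) to -0.15 (without IL-4Rα-/- replicate 1) and *Tnfsf13b* from -0.32 to -0.14, none of them called. Cytokine genes at an unadjusted p under 0.05 numbered 1 to 2 when a library was left out, with *Il1a* joining *Il18* without IL-4Rα+/+ replicate 1, *Il1rn* without IL-4Rα+/+ replicate 3 and *Tnf* without IL-4Rα-/- replicate 3. Partner genes at that level numbered 5, against 3 with upper quartile scaling, 3 with library size only, 9 without a filter, 9 with the length trend removed and 2 to 20 when a library was left out, the 20 without IL-4Rα+/+ replicate 3. With the Ly6C low covariate, 2 cytokine and 14 partner genes reached it. The cause was not tested. Same-numbered libraries had correlations of 0.184, -0.271 and -0.296 in their deviations from the genotype means, so the numbers were not taken as pairs. With the replicate block, 0 genes were called and *Il18* was at 0.46 with an unadjusted p of 0.0206 and an adjusted p of 0.812 by edgeR. *Il6* and *Il10*, at 16 reads or fewer per library, were limited by depth.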

Other observations

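A fit chosen after seeing the data held the mean log2 CPM of the 6 Ly6C low monocyte genes as a covariate beside genotype. In it the log2 difference of *Il1a* was 0.83 (SE 0.19), with an unadjusted p of 0.00385 and an adjusted p of 0.343 by edgeR, against 0.53 (SE 0.32) without the covariate. *Il18* was at 0.43 (SE 0.12), with an unadjusted p of 0.00850 and an adjusted p of 0.353, and *Il27* was at -0.06. In this fit 11.7% of all genes had an unadjusted p under 0.05, and no cytokine gene was called.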
